A study of Mus musculus with 11 samples.

Results

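The genes described are 10 of the 31280 genes in a liver RNA table, taken by name as lipid droplet proteins and genes of droplet lipolysis. They are the perilipins Plin2, Plin3, Plin4 and Plin5, the CIDE genes Cidea, Cideb and Cidec, the lipase gene Pnpla2 with its inhibitor G0s2, and Hsd17b13. They were chosen by name and function, and the rule uses no measured value, though earlier results of these data were known when the list was drawn up. The samples were livers of wild-type C57BL/6 mice, all fed a diet deficient in methionine and choline (MCD), a mouse model of steatohepatitis, for 8 weeks. The MCD group (n = 5) received water by gavage, and the limonin group (n = 6) received limonin, a citrus triterpenoid, at 100 mg/kg by gavage for 4 weeks. Both groups share the diet, and no mice fed a complete diet enter this comparison (not analysed here). For age and sex, no value was given in the labels. The labels number the samples as replicates without naming animals, so p-values measure the spread between these samples.

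Liver cells store triglyceride in lipid droplets, whose surface is a phospholipid layer covered by proteins. Perilipins coat that surface and limit the access of lipases, and CIDE proteins sit where droplets touch and let lipid pass from the smaller to the larger droplet. Pnpla2 encodes adipose triglyceride lipase, the enzyme that removes the first fatty acid from stored triglyceride, and G0s2 is its protein inhibitor. Hsd17b13 is a droplet enzyme made mainly by hepatocytes, known from human genetics for its link to fatty liver disease.

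Of the 10 genes, 9 passed the filter of 1 FPKM (fragments per kilobase of transcript, scaled to library depth) in 5 libraries, and Cidea did not. With limma and Benjamini-Hochberg adjustment over 10489 genes at 0.05, 1 of the 9 rose, 0 fell and 8 were not called. Among all genes tested 25.9% were called, 7.24% higher and 18.7% lower. Hsd17b13 was the gene that rose, 1.51-fold. Cidec and G0s2 had the largest differences, at 0.527 and 0.557 times the MCD level on the log2(FPKM + 1) scale, and neither passed the test. The median log2 fold change of the 9 genes was -0.12, against -0.07 over all genes tested. In 0 of the 9 genes did the groups separate without overlap, which 11.3% of all tested genes did. In the authors' deposited table, which marks 10.7% of its genes as significant, Hsd17b13 was the 1 gene of the 10 so marked.

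**Figure D1:**
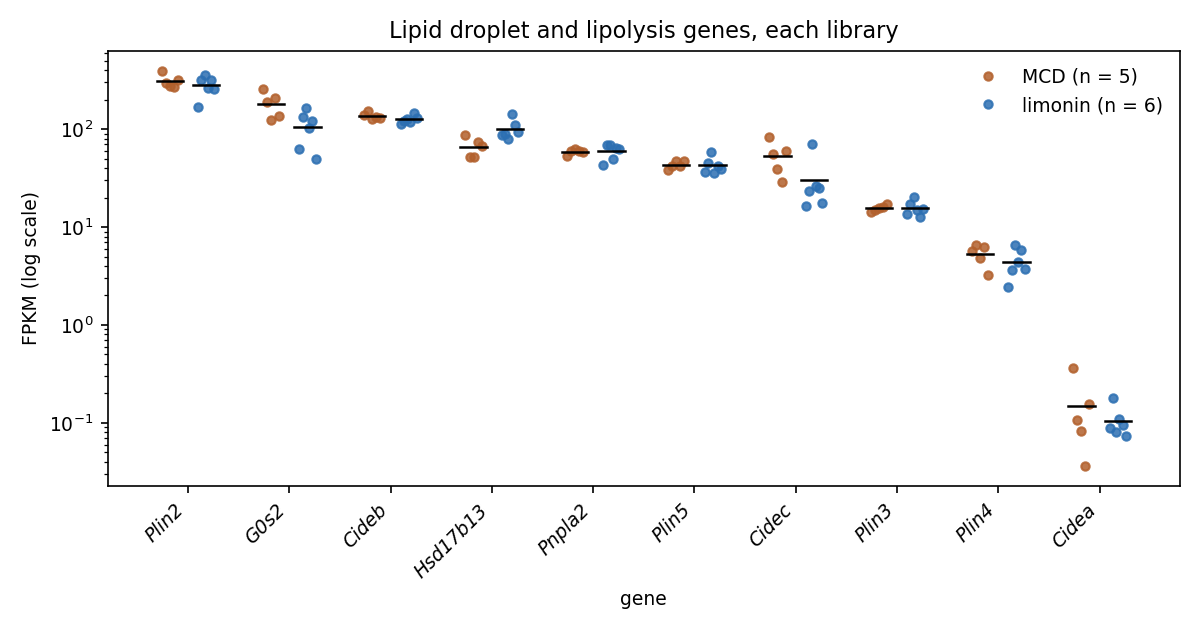
FPKM on a log axis for each of the 10 genes, with 1 point per library, the MCD group left and the limonin group right of each gene, and a black line at the group mean. Plin2 is the highest in each of the 11 libraries and Cidea the lowest.

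Levels of different genes can be set side by side because FPKM are per length of transcript. Plin2 ranked at 1 among the 10 genes in all 11 libraries, with a mean of 294 FPKM. Plin3, Plin4 and Cidea held ranks 8, 9 and 10 in all 11 libraries, with means of 15.6, 4.83 and 0.125 FPKM. The genes between them changed places from library to library. G0s2 ran from rank 2 to rank 5, Cideb from 2 to 3, Hsd17b13 from 2 to 6, Pnpla2 from 4 to 6, Plin5 from 6 to 7 and Cidec from 5 to 7. Cideb was the steadiest, with a highest library 1.38 times its lowest. Cidec and G0s2 varied most among the 9 tested genes, with ratios of 5.11 and 5.22.

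Stretches around the transcription start are shown for the most abundant gene and for the 3 genes with the largest differences, so that the receptor and E-box letters can be read in place. Each window holds 250 bases before and 50 bases after a start site, from RefSeq on GRCm38.p6, written 5′ to 3′ on the gene's strand. Cidec had another start window, which is not printed. Capitals mark matches on either strand to AGGTCA, a single unit of the sites bound by nuclear receptors such as the PPARs, or to CACGTG, the E-box.
Plin2 (chr4:86670010-86670309, strand minus): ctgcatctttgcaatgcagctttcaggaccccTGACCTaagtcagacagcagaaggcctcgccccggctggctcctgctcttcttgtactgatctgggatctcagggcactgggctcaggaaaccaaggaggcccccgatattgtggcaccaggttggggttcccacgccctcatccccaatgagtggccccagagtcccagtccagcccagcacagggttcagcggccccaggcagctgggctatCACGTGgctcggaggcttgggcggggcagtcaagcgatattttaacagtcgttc
Cidec (chr6:113435711-113436010, strand minus): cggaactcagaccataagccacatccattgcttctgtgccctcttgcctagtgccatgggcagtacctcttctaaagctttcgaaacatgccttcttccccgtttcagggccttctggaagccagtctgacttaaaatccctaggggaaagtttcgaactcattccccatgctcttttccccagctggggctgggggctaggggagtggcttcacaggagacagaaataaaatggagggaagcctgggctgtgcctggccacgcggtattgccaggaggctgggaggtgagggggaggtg
G0s2 (chr1:193273139-193273438, strand minus): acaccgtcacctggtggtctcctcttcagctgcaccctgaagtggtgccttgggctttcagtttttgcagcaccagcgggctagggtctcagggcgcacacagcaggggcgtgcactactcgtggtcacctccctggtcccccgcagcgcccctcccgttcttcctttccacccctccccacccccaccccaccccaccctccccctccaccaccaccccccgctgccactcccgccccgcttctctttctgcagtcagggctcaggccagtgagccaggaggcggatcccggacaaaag
Hsd17b13 (chr5:103977339-103977638, strand minus): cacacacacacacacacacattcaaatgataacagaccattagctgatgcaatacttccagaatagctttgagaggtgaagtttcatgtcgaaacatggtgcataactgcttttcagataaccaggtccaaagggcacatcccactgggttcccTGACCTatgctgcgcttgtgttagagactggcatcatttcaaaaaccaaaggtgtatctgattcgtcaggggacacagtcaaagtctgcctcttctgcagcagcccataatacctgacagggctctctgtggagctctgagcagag
Cidea was left out of the promoter search, and the other 9 of the 10 genes had 11 windows in all. AGGTCA occurred in 4 of the 11 windows, those of Plin2, Hsd17b13 and both starts of Plin5, and in 16.3% of all 32851 windows. In Hsd17b13 it lies on the opposite strand with its leading base at position -96, and in Plin2 at -218. CACGTG occurred at -4 in Plin2 alone of these genes, and in 7.15% of all windows. A direct repeat of AGGNCA spaced by 1 base (DR1, the PPAR site) and CAAAGTCCA, a site of the hepatocyte factor HNF4, occurred in 0 of the 11 windows. They were found in 0.381% and 0.475% of all windows. AGGTCA is also a form of the DR1 unit. A match is a string of letters and not measured binding.

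The perilipin coat genes showed no called difference. Plin2, which encodes the main droplet coat protein of hepatocytes and is also made by lipid-laden macrophages, lies on chromosome 4 (86648386 to 86670060, GRCm38). Its MCD libraries 1 to 5 read 397, 295, 276, 270 and 317 FPKM, and the limonin libraries ran from 169 through a median of 290.1 to 360 FPKM. Limonin 1 was the lowest of all 11 libraries. With limonin 4 and limonin 6, at 261 and 254 FPKM, 3 limonin libraries lay below every MCD library, and the others lay within the MCD range. The group means were 311 ± 51.3 (SD, n = 5) and 281 ± 67.5 FPKM (SD, n = 6). The log2 fold change was -0.17 ± 0.17 (SE), with a 95% interval of -0.55 to 0.20 and an adjusted p of 0.485 (limma).

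Plin5, a perilipin that tethers droplets to mitochondria in oxidative tissue, lies on chromosome 17 (56111601 to 56117596). It read 38.5, 42.0, 47.8, 41.8 and 47.0 FPKM in MCD 1 to 5, and 35.3 to 57.8 FPKM with a median of 40.7 with limonin. The MCD values lay inside the limonin range. Its log2 fold change was -0.04 ± 0.12, with an interval of -0.30 to 0.23. Plin3, a widely expressed perilipin that moves between cytosol and nascent droplets, had the narrowest MCD range of the coat genes, 14.1 to 17.1 FPKM, against 12.7 to 20.3 FPKM with limonin. Its log2 fold change was -0.00095 ± 0.11 with an interval of -0.24 to 0.24. Plin4, a perilipin best known from adipocytes and muscle, read 3.23 to 6.60 FPKM in MCD and 2.47 to 6.49 FPKM with limonin. Its log2 fold change was -0.24 ± 0.20, with the widest interval of the coat genes, -0.67 to 0.18.

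Of the CIDE genes, Cidec had the largest difference of all 10 genes, and it did not pass the test. Cidec, also called Fsp27, makes the droplets of fat cells large and single and is induced in fatty liver as a target of PPARgamma. It lies on chromosome 6 (113424634 to 113435760). In MCD 1 to 5 it read 83.0, 56.3, 39.4, 29.1 and 60.3 FPKM. The limonin libraries 1 to 6 read 16.2, 23.2, 71.0, 26.6, 24.9 and 17.4 FPKM. Of the 6 limonin libraries 5 lay below every MCD library, and limonin 3 lay above all MCD libraries except MCD 1. The means were 53.6 ± 20.7 (SD, n = 5) and 29.9 ± 20.6 FPKM (SD, n = 6). On the log2 scale the difference was -0.92 ± 0.37, with an interval of -1.74 to -0.11. The adjusted p was 0.0874 (limma), and 0.00624 without limonin 3, where the log2 fold change was -1.21 ± 0.25. With any other single library left out Cidec was not called, at adjusted p up to 0.187 (limma).

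**Figure D2:**
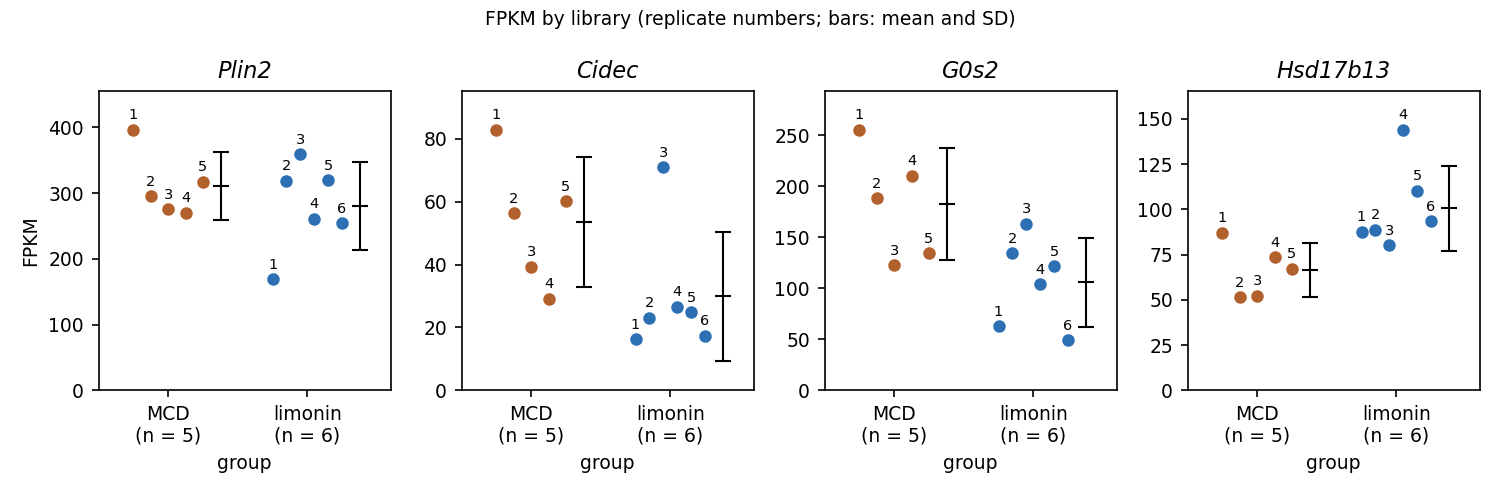
FPKM of Plin2, Cidec, G0s2 and Hsd17b13 in each library on linear axes from 0, with the replicate number above each point and bars for the mean and SD of the MCD (n = 5) and limonin (n = 6) groups. Limonin 3 stands at 71.0 FPKM for Cidec while the other limonin libraries lie between 16.2 and 26.6, and Hsd17b13 lies above every MCD library in 5 of the 6 limonin libraries.

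Cideb, the CIDE protein of hepatocytes, which also takes part in loading lipid onto VLDL, was higher than Cidec in all 11 libraries. It lies on chromosome 14 (55754050 to 55758458) and read 141, 154, 128, 132 and 130 FPKM in MCD 1 to 5. Limonin values ran from 112 through a median of 123 to 145 FPKM, and 4 of 6 lay below every MCD library. The log2 fold change was -0.12 ± 0.09, with an interval of -0.32 to 0.08 and an adjusted p of 0.356 (limma). In GENCODE M21, exons of Nop9 on the opposite strand cover 76.3% of the exonic bases of Cideb. Nop9 averaged 19.7 FPKM. Use of strand in the quantification was not given in the sources used here, so reads of the pair may not be separated. Cidea, the CIDE gene of brown fat, lay between 0.0358 and 0.364 FPKM in the MCD libraries and between 0.0744 and 0.181 in the limonin libraries. These values correspond to an implied 0.764 to 7.49 fragments per library. At so few fragments, no difference was detected (exact permutation test, two-sided, p = 0.558). The ratio of Cidec to Cideb, which does not depend on the scaling of a library, had a median of 0.366 in MCD and 0.182 with limonin. It was 0.589, 0.366, 0.309, 0.220 and 0.464 in MCD 1 to 5, and 4 of 6 limonin libraries lay below all of these, while limonin 3 stood at 0.560.

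The lipase gene and its inhibitor differed in their spread. Pnpla2 (chromosome 7, 141455198 to 141460743) read 53.3, 59.6, 62.5, 59.6 and 58.4 FPKM in MCD 1 to 5. With limonin it ran from 42.7 through a median of 63.3 to 68.8 FPKM, with 3 libraries above and 2 below all MCD libraries. Its log2 fold change was -0.0037 ± 0.13, with an interval of -0.27 to 0.26 and an adjusted p of 0.988 (limma). G0s2 (chromosome 1, 193272161 to 193273217) read 256, 189, 123, 210.3 and 135 FPKM in MCD 1 to 5. The limonin libraries 1 to 6 read 62.7, 135, 164, 104, 122 and 49.0 FPKM. Of these, 4 lay below every MCD library, and limonin 2 and 3 lay within the MCD range. The means were 182 ± 54.8 (SD, n = 5) and 106 ± 43.6 FPKM (SD, n = 6). The log2 fold change was -0.84 ± 0.31 with an interval of -1.52 to -0.17. The adjusted p of 0.0643 (limma) missed the threshold, and without limonin 3 it was 0.0298. With any other single library left out G0s2 was not called, at adjusted p up to 0.143 (limma).

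The ratio of Pnpla2 to G0s2, lipase over inhibitor at the RNA level, had a median of 0.316 in MCD and 0.518 with limonin. In MCD 1 to 5 it was 0.209, 0.316, 0.509, 0.283 and 0.434. The limonin libraries 1 to 6 stood at 0.681, 0.509, 0.421, 0.476, 0.527 and 1.27. Of the 6, 3 exceeded every MCD library, and limonin 6, where G0s2 was lowest, was the highest. The ratio of Plin5 to Plin2 had medians of 0.148 and 0.149, and limonin 1, at 0.216, was the 1 library above the MCD range of 0.097 to 0.173.

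Hsd17b13, the 1 gene called, lies on chromosome 5 (103955440 to 103977410). It encodes a droplet enzyme that acts on steroids and retinol in test systems. It read 87.0, 51.5, 52.2, 73.5 and 67.3 FPKM in MCD 1 to 5, and 87.7, 88.8, 80.1, 144, 110.2 and 93.4 FPKM in limonin 1 to 6. Of the limonin libraries 5 lay above every MCD library, with limonin 1 above MCD 1 by less than 1 FPKM, and limonin 3 lay below MCD 1. The means were 66.3 ± 15.0 (SD, n = 5) and 101 ± 23.5 FPKM (SD, n = 6). The log2 fold change was 0.60 ± 0.17 with an interval of 0.24 to 0.95 and an adjusted p of 0.0203 (limma). Without MCD 2 or MCD 3 the adjusted p was 0.0647 and 0.0504, with log2 fold changes of 0.51 and 0.52. Its paralog Hsd17b11, also a droplet protein, read 43.6 ± 2.85 and 49.1 ± 5.50 FPKM, a log2 fold change of 0.16 ± 0.10 that was not called (adjusted p = 0.226). In the authors' deposited table the ratio of group means was 1.52 for Hsd17b13 with a q of 0.00114. There it was 0.557 with a q of 0.135 for Cidec and 0.581 with a q of 0.113 for G0s2.

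**Figure D3:**
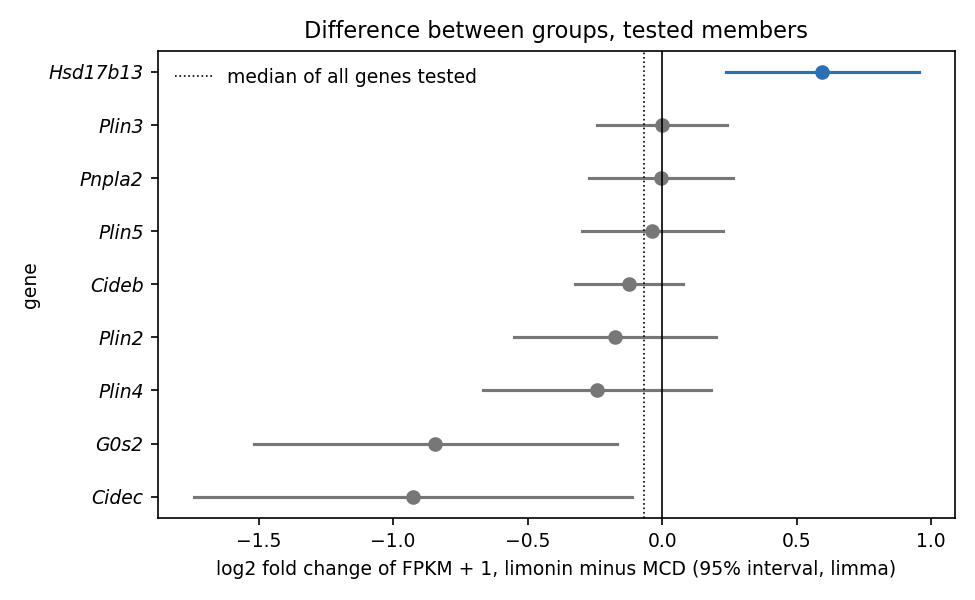
Log2 fold change, limonin minus MCD, for the 9 tested genes, with the 95% interval from limma as a line, the dotted line at the median of all genes tested and blue for the gene called higher. The intervals of Cidec and G0s2 lie below 0 although their adjusted p missed the threshold, and those of Plin3, Pnpla2 and Plin5 are centred near 0.

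The genes were also compared from library to library within the groups. With the group means removed, Pearson's r over the 11 libraries was positive for 31 of 36 pairs, with a median of 0.363, and all pairs share the same libraries and their scaling. Over all pairs of tested genes 62.4% were positive, with a median of 0.141, against 86.1% of the 36 pairs. The highest values were 0.797 for Plin3 and Plin5, 0.750 for Plin2 and Cidec, 0.747 for Plin5 and Pnpla2, and 0.715 for Plin2 and G0s2. Hsd17b13 did not follow the others, with values from -0.588 with Plin5 to 0.227 with G0s2. Limonin 3 held the highest limonin value for 7 of the 9 genes, and its Hsd17b13 was the lowest of the group. Limonin 1 held the lowest value for 5 genes. Among 9600 other tested genes, those most like Plin2 by the same measure were Mfsd2a (0.919), Abhd6 (0.915) and Mpdu1 (0.902). Nans (0.963), Dazap2 (0.945) and Cd276 (0.940) were most like Cidec, and Nans and Cd276 were called lower, by -0.39 and -0.65 on the log2 scale. Tmem189 (0.864), Nt5dc3 (0.855) and Zbtb12 (0.854) were most like G0s2, and Tmem189 was called lower (-0.40). For Hsd17b13 they were Nbn (0.830), Gmnn (0.812) and Spcs3 (0.810), none of them called. Plin5 was closest to Ppp2r5d (0.920), Srd5a3 (0.909) and Acads (0.903), and Plin3 to Tatdn2 (0.955), Tprgl (0.951) and Sumo3 (0.949). Plin4 was closest to Faah (0.895), Cd82 (0.884) and Rpl18-ps1 (0.871). Cideb was closest to Bdh2 (0.939), Ndufaf3 (0.896) and H2-T23 (0.854), and Pnpla2 to Plbd2 (0.910) and Slc35b2 (0.884). These are the highest of 9600 values over 11 libraries and describe these libraries.

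Genes that build droplets gave small differences in both directions. Of 16 tested genes of droplet assembly and other droplet proteins, of 17 listed, 4 rose, 1 fell and 11 were not called, with a median log2 fold change of 0.15. Over all genes tested 7.24% were called higher and 18.7% lower, and in 11.3% the groups did not overlap. Bscl2, which encodes seipin, the protein that shapes nascent droplets, rose by 0.32 ± 0.09 on the log2 scale, with means of 8.09 ± 0.887 (SD, n = 5) and 10.3 ± 0.947 FPKM (SD, n = 6). Tmem159, which encodes the partner of seipin in droplet assembly, had a called log2 fold change of -0.53 ± 0.14, and all 6 limonin libraries (mean 1.77 ± 0.239 FPKM) lay below all MCD libraries (mean 3.08 FPKM). Dgat2, which makes triglyceride at the droplet, rose by 0.31 ± 0.11 and Mettl7a1, a droplet-associated methyltransferase, by 0.39 ± 0.11. The other riser was Fitm2, which helps droplets bud from the endoplasmic reticulum, at 0.32 ± 0.11. Mettl7b, at 1024 and 1002 FPKM, exceeded Plin2 in level and was not called. Dgat1 was not called either (log2 fold change -0.18 ± 0.08, adjusted p = 0.110, limma), with all 6 limonin libraries below all MCD libraries. The number higher depended on single libraries. Higher calls numbered 0 when MCD 2 was left out, 1 when MCD 1 or 3 or limonin 2 or 6 was, and 2 when MCD 5 or limonin 3 was, while 2 genes were lower without limonin 3.

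Among 14 tested genes of other lipases and lipase cofactors, of 15 listed, 4 rose, 0 fell and 10 were not called, with a median of 0.15. The shares over all genes tested were 7.24% higher, 18.7% lower and 11.3% without overlap. Aadac, an endoplasmic reticulum esterase, rose by 0.42 ± 0.10 on the log2 scale, from 67.0 ± 6.66 to 90.4 ± 10.2 FPKM (SD, n = 5 and 6), with all 6 limonin libraries above all MCD libraries. The carboxylesterase genes Ces1d and Ces1f, whose family includes hepatic triglyceride hydrolase, rose by 0.49 ± 0.17 and 0.37 ± 0.13, and Pnpla8, a phospholipase, by 0.42 ± 0.14. Ces1g, of the same family, was not called (0.06 ± 0.20, adjusted p = 0.851, limma). Ces1d and Ces1f are close relatives in a gene cluster, and reads may be shared between them. Abhd5, the activator of adipose triglyceride lipase, read 3.93 ± 0.477 and 4.64 ± 0.719 FPKM (log2 fold change 0.19 ± 0.11), and the lipase genes Lipe and Mgll had differences of -0.0025 ± 0.12 and 0.03 ± 0.10. None of these 3 was called. Pnpla3, the relative of Pnpla2 linked to human fatty liver, stayed at or under 0.146 FPKM and was not tested. Higher lipase calls numbered 1 without MCD 1, MCD 2 or MCD 5, and 2 without MCD 3, MCD 4 or limonin 2, 3, 4 or 6.

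Among the regulators, the receptor genes Ppara and Pparg were called in opposite directions, and the receptor genes Rxra, Nr1h3 and Nr1h4 were not called. Of 13 tested regulators of lipid genes, of 15 listed, 2 rose, 3 fell and 8 were not called, with a median of 0.07. All genes tested had 7.24% higher and 18.7% lower calls, with a median of -0.07. Ppara, the receptor for fatty acids in hepatocytes, rose by 0.75 ± 0.21 on the log2 scale, with means of 4.48 ± 0.591 and 8.77 ± 4.14 FPKM, and Klf15, a factor of fasting metabolism, rose by 0.64 ± 0.17. Pparg had means of 5.95 ± 0.689 and 4.10 ± 0.743 FPKM and fell by 0.45 ± 0.11 on the log2 scale, and its call was lost at equal summed FPKM (adjusted p = 0.0597, limma). Tfeb fell by 0.36 ± 0.10 and Cebpb by 0.41 ± 0.12. The call of Tfeb was lost with quantile normalization and at equal summed FPKM, and that of Cebpb with median-ratio scaling and at equal summed FPKM. Without MCD 2 there were 0 higher and 1 lower.

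Other targets of PPARalpha rose in part. Of 20 tested, 8 rose (7.24% of all genes tested did), 1 fell (18.7% did) and 11 were not called, with a median of 0.21. The smallest p were those of the fatty acid hydroxylases Cyp4a10 (0.72 ± 0.11) and Cyp4a14 (0.73 ± 0.14), the oxidation enzyme Hadha (0.47 ± 0.10) and Vnn1 (0.50 ± 0.14), all log2 fold changes. Higher calls numbered 3 without MCD 2, 4 without MCD 3 and 5 without limonin 3 or limonin 4. The member that fell was Fgf21 (-1.52 ± 0.50), named after its values were seen, and of the fits without 1 library those without limonin 3 or limonin 4 alone called it. Of 6 tested genes of hepatic PPARgamma, of 10 listed, 2 rose and 2 fell, with a median of -0.41. These were Cyp4a14 and the fatty acid transporter gene Cd36 (0.66 ± 0.22), and Pparg and the desaturase gene Scd2 (-0.93 ± 0.14). Cyp4a14 and Pparg also stand on the lists above. The call of Cd36 was lost without MCD 1, 2, 3 or 4 or limonin 1, 2, 3 or 4, which left 1 gene higher.

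**Figure D4:**
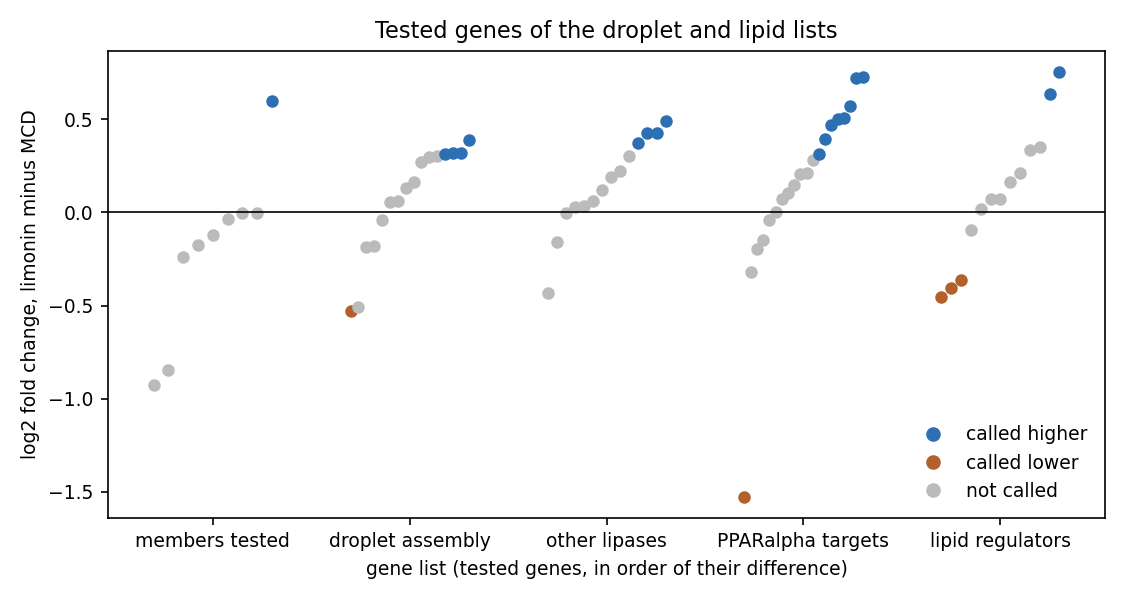
Log2 fold change of each tested gene, limonin minus MCD, for the droplet and lipolysis genes (members tested) and 4 related lists, in order within each list, coloured by the limma call. The droplet and lipolysis genes have 1 called gene at 0.60, and the list of PPARalpha targets reaches from -1.52 to 0.73.

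Markers of several cell types differed between the groups, and their part in the values above was not tested. Over all genes tested, 7.24% were called higher and 18.7% lower. In bulk liver RNA, fewer cells of a type and less RNA per cell cannot be told apart. Summed hepatocyte markers (15 of 15 tested, 8 higher, 0 lower, median 0.42) lay between 42371 and 50527 FPKM in MCD livers and between 45291 and 65372 FPKM after limonin. F2, Fgg, Cps1 and Fgb had the smallest p, with log2 fold changes of 0.53, 1.16, 1.05 and 0.96. Limonin 2 was the highest library for Fgg, Cps1 and Fgb, at 2108, 464 and 1323 FPKM. Differences were positive for 12 of the 15 genes. Apoa1, Apoc3 and Ttr had negative ones, -0.65, -0.37 and -0.12 on the log2 scale, and none of these was called. The number lower was 1 without limonin 4 and 2 without limonin 5. The genes lower were Apoa1 in both fits and Apoc3 in the latter. Summed macrophage markers, among them Csf1r (-0.96), Itgax (-1.08), Trem2 (-1.14) and Cd68 (-1.33), lay between 176 and 674 FPKM in MCD livers and between 107 and 187 FPKM after limonin, with 6 of 12 tested lower (2 without MCD 2). Stellate cell and fibroblast markers fell in 12 of 14, led by Vim, Bgn, Des and Col1a2, and their sums ran from 122 to 248 and from 72.9 to 106 FPKM. Bile duct markers were called lower in 7 of 7 tested, of 9 listed, led by Muc1, Epcam, Cldn7 and Krt19. Their sums were 76.6 to 413 and 28.1 to 88.7 FPKM, mostly Spp1 (52.3 to 353 and 15.7 to 63.2 FPKM). Of 3 tested lymphocyte markers, Ighm and Cd79a fell and Trac was not called, with sums of 7.84 to 15.0 and 3.57 to 8.88 FPKM, and 1 was lower in 8 of the 11 fits without 1 library. Muc1, Cd79a and the stellate marker Timp1 reached 1 FPKM in 1 of the 6 limonin libraries and entered the test through the MCD group. The macrophage markers Itgax and Trem2 and the bile duct marker Sox9 reached it in 3, 4 and 3 limonin libraries. They also passed the filter only with MCD libraries, so the calls of all these genes add no support to these counts.

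Plin4, Cidec and G0s2 are also genes of fat cells. Whether fat or muscle tissue contributed to the values above was not tested. Of the listed adipocyte markers, Adipoq, Plin1, Retn and Ucp1 were at most 0.068, 0.081, 0.032 and 0.024 FPKM in any library. Each was listed at 0 in 6 to 10 of the 11, and Cfd was at most 0.498 FPKM. Nnat was higher than these, at 0.783 to 1.911 FPKM in MCD and 0.109 to 0.757 FPKM with limonin. Adrb3 read 0.365 to 1.003 FPKM in MCD and 0.133 to 1.357 FPKM with limonin. Neither Nnat nor Adrb3 passed the filter. Of 4 tested adipocyte markers, of 12 listed, Aqp7 fell (-0.48 ± 0.09), having passed the filter through the MCD group alone (1.17 to 1.75 FPKM, against 0.617 to 0.928 with limonin), and Fabp4, Pck1 and Lipe were not called, and without limonin 1 the number lower was 2. Summed over the 11 listed genes in the table, mostly Pck1, they lay between 218 and 351 FPKM in MCD livers and between 174 and 480 FPKM after limonin. Heart and skeletal muscle genes, of which 0 of 12 passed the filter, summed to 1.33 to 2.40 FPKM in MCD and 1.23 to 22.2 FPKM with limonin. Mb, which encodes myoglobin, reached 6.48 and 3.19 FPKM in limonin 5 and 6 and was listed at 0 in the other limonin libraries. Plin5, which heart muscle also makes, read 42.1 and 39.3 FPKM in those libraries, within its MCD range. Without both, Hsd17b13 had a log2 fold change of 0.58 ± 0.20 and an adjusted p of 0.0533 (limma).

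Depth was read from the lowest values, since FPKM hold no fragment counts, and came to 15540000 to 19560000 implied fragments per library. Between 9742 and 11087 genes reached 1 FPKM, and summed FPKM ran from 404050 to 471623. The split of calls over all genes depended on the scaling: of the called genes, 27.9% were higher as deposited, 49.6% at equal summed FPKM, 48.1% by median ratios and 52.9% by quantiles. Hsd17b13 was higher, and Cidec and G0s2 had negative differences, under all 3 scalings.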

How the data were processed

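Liver poly(A) RNA of 5 MCD and 6 limonin samples was sequenced after a preparation that marks the strand with dUTP, per the labels' protocols. Per the submitters' processing notes, the tools were StringTie 1.3.4d, HISAT2 2.0.4 and cutadapt 1.9 and the build GRCh38, a human build, while the identifiers in the table are mouse genes. Their order and the annotation were not given in the sources used here. Per the file headers, each gene has an FPKM for each library in the deposited table, with the authors' ratio of group means, the log2 of that ratio, a p-value and a q-value. The authors' test was not given in the sources used here.

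Values were transformed to log2(FPKM + 1), which understates changes of low genes, and 10489 of 31280 genes passed a minimum of 1 FPKM in any 5 libraries, which 1 group alone could supply. The test was limma 3.58.1 (R 4.3.3; trend, robust, two-sided), adjusted over all genes tested at 0.05. The fit was tested on simulated data. Cidea was compared by exact permutation over 462 divisions of the libraries. For implied depth, 1 fragment was taken as the commonest low value of FPKM times length among genes with 1 transcript. Coordinates are from GENCODE M21 (GRCm38), where 31191 identifiers were found. Ldaf1 and Tf were matched as Tmem159 and Trf; Lep was not analysed here. Named genes were the 10 genes, up to 4 of each list with the smallest p, and the 3 most alike per gene, predicted genes left out and 1 gene not reported here; others were named after their values were seen. No 2 libraries of a group looked like 1 library deposited again: over 25 pairs at most 0.143% of tested genes had identical FPKM, and the SD of log2 differences was 0.274 to 0.504. The 10 genes are set by name, with no measured value in the rule, but they and the lists, tests and motifs were chosen with earlier results of these data known. Alternatives were other filters, pseudocounts, scalings and variance models, library weights, the replicate number as a block, and libraries left out.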

Additional observations from a re-analysis of the deposited data

Results flagged for a closer look

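Of 26 groups of values examined (10 genes and 3 ratios in each group), 5 held a library whose gap to its neighbour exceeded Dixon's 95% critical value, 0.625 for 6 samples. Chance flags about 1 in 20 groups, and the ratios share values with the genes. All 5 were in the limonin group. Limonin 3 stood at 71.0 FPKM for Cidec, with the next library at 26.6, and its ratio of Cidec to Cideb was 0.560, with the next at 0.222. Limonin 6 had a ratio of Pnpla2 to G0s2 of 1.27, with the next at 0.681. Limonin 1 had a ratio of Plin5 to Plin2 of 0.216, with the next at 0.161, and its Plin2 was the lowest of all libraries. Limonin 2 had 0.181 FPKM of Cidea, with the next at 0.110, at an implied 3.86 fragments.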

How the results depend on the processing

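In 23 alternative fits, Hsd17b13 had a log2 fold change of 0.49 to 0.72 and was called in 19. It was not called with no filter on low values (adjusted p = 0.0674), without MCD 2 or MCD 3, or without both limonin 5 and 6, so the genes called higher numbered 0 with no filter and without both limonin 5 and 6. Cidec (-1.21 to -0.75) was called in the fit without limonin 3 alone. G0s2 (-0.99 to -0.65) was called there, without trend (adjusted p = 0.0493) and with weights per library (0.0489), so the genes called lower numbered 1 in both of the latter. With 1 library left out, higher calls among the 9 tested genes ran from 0 to 1 and lower calls from 0 to 2. Plin2, Plin3, Plin4, Plin5, Cideb and Pnpla2 were called in 0 of 23 fits.

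Over all genes, 759 higher and 1957 lower calls became 412 higher with no filter, 900 lower with a filter at 5 FPKM, 1470 higher with median-ratio scaling, 1813 higher with quantile normalization and 1112 lower at equal summed FPKM. Without both limonin 5 and 6, 1347 were higher, without both MCD 4 and 5, 486, and in the authors' deposited calls 1168. Leaving out 1 library gave 328 to 1097 higher and 1080 to 2134 lower. With the replicate number as a block, in which limonin 6 has no partner and adds nothing, 363 were higher and 893 lower. Hsd17b13 was called there (0.61, adjusted p = 0.0303), and Cidec and G0s2 were not (0.298 and 0.229). Deviations of same-numbered libraries correlated from -0.235 to 0.204. The labels do not say whether the numbers pair the samples. These values cannot decide it, since pairs with little in common would give such values too. The cause of these shifts was not tested.

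Among the related lists, with no filter 0 droplet assembly genes, 1 lipase gene, 0 regulators and 3 PPARalpha targets were higher, and with the block 0, 1, 2 and 4. Droplet assembly genes called higher numbered 8 with quantile normalization and 6 with median-ratio scaling, and lipase genes 6 with the latter. Regulators called lower numbered 0 at equal summed FPKM and with the block. Fgf21 was not called with either smaller pseudocount, with no filter, at equal summed FPKM or with the block. Of the cell type markers, with the block 1 hepatocyte gene was higher and 1 macrophage, 7 stellate, 4 bile duct and 1 lymphocyte genes were lower. With no filter 3 macrophage, 1 lymphocyte and 2 adipocyte genes were lower. At 5 FPKM fewer genes were tested, and 4 macrophage, 7 stellate, 4 bile duct and 0 adipocyte genes were lower. Lower lymphocyte genes numbered 1 with each smaller pseudocount and each other scaling.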
